A study of Rattus norvegicus with 5 samples.

Results

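The genes described here are the heat shock proteins and the chaperones and folding enzymes of the endoplasmic reticulum, with their cochaperones and a few stress-induced regulators. They were chosen by name from a list of 37 genes, of which 31 had at least 1 probe set that the platform annotation assigns to a single gene symbol. Of these 31, 27 were bright enough to be tested. On the same arrays 4736 genes had such a probe set and 3174 were tested. By compartment, 14 of the 31 are cytosolic, 3 mitochondrial and 13 in the endoplasmic reticulum, and 1, Ddit3, is a stress transcription factor. The numbers tested were 11, 3, 13 and 0.

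Total RNA from rat hippocampus, labelled P5, was measured on 5 single-colour oligonucleotide arrays. The groups were a control diet with 2 arrays, fetal alcohol exposure with 2 arrays and an isocaloric diet, the usual feeding control for an alcohol diet, with 1 array. The labels give no strain, sex, dose or timing of alcohol, and do not say whether samples came from separate animals, litters or pools, so the spread between arrays may be technical in part. Hippocampal neuron markers were present, with 10 of the 11 on the array bright enough to be tested. Hpca, for example, measured 600.01 and 570.2 under control diet, 817 and 504 after fetal alcohol and 470.2 under isocaloric diet.

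Chaperones bind unfolded or partly folded proteins, keep them from aggregating and pass them on to the next folding step. When unfolded protein builds up in the cytosol, heat shock factor 1 binds heat shock elements and switches on the heat shock genes. In the endoplasmic reticulum the sensors Ire1, Perk and Atf6 start the unfolded protein response, in which Xbp1 and Atf6 act on endoplasmic reticulum stress elements to raise the chaperones of that compartment. In the young brain these proteins also serve ordinary growth, since neurons extending processes make large amounts of membrane, secreted and synaptic protein.

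The promoters of several listed genes are shown because the genes of each stress programme are known to share short elements there. RefSeq windows from 250 bases before to 50 after the annotated start (build GRCr8) were found for 31 of the 37 genes and searched on both strands. The heat shock element was taken as GAA, TTC and GAA with any 2 bases between each, and the endoplasmic reticulum stress element as CCAAT and CCACG with any 9 bases between. Its second form was taken as ATTGG and CCACG with any 1 base between, and the unfolded protein response element as TGACGTGG. Capitals mark the fixed letters of a match, or their reverse complement where the match lies on the opposite strand. Endoplasmic reticulum stress elements are in capitals in the first 5 windows, of which Hyou1 carries the second form, and heat shock elements in the last 3.
Hspa5, chr3:38452958-38453006, plus strand: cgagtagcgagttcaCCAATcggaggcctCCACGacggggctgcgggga
Hsp90b1, chr7:23012332-23012484, minus strand: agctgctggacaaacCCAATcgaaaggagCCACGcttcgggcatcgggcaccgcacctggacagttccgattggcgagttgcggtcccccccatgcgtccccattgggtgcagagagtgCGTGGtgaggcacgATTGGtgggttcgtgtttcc
Calr, chr19:40213120-40213168, plus strand: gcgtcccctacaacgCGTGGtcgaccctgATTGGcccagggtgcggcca
Canx, chr10:35158054-35158102, minus strand: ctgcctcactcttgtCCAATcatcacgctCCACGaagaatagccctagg
Hyou1, chr8:53602679-53602819, plus strand: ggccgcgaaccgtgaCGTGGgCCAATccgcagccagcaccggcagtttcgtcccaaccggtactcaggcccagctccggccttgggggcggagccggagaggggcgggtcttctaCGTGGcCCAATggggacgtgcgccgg
Hspe1, chr9:64084247-64084294, plus strand: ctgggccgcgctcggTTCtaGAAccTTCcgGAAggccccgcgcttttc
Hsph1, chr12:10427317-10427359, plus strand: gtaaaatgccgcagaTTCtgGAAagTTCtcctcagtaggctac
Serpinh1, chr1:163062984-163063026, minus strand: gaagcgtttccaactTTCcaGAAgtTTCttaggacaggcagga

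The heat shock element was present in 6 of the 31 windows (19.4%), those of Dnaja1, Hspa8, Hspd1, Hspe1, Hsph1 and Serpinh1, against 267 of all 33469 windows (0.798%). The endoplasmic reticulum stress element was present in 5 (16.1%), those of Calr, Canx, Hsp90b1, Hspa5 and Xbp1, against 22 of all windows (0.0657%). The second form was found in the windows of Herpud1 and Hyou1, 2 of 31 (6.45%), against 17 of all windows (0.0508%). The unfolded protein response element was found in 1 window, that of Hyou1, where it overlaps a match to the second form, against 199 of all windows (0.595%). Hspd1 and Hspe1, which encode the barrel and the lid of the mitochondrial chaperonin, lie head to head on chromosome 9. The starts used for their windows are 290 bases apart, whereas the annotated extents of the genes meet (Hspd1 to base 64084332, Hspe1 from base 64084327). Their windows overlap by 211 bases and hold the same pair of overlapping heat shock element matches, so these are 1 stretch of sequence and not separate cases. A match describes these letters in these windows and does not show that a factor bound there.

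**Figure D1:**
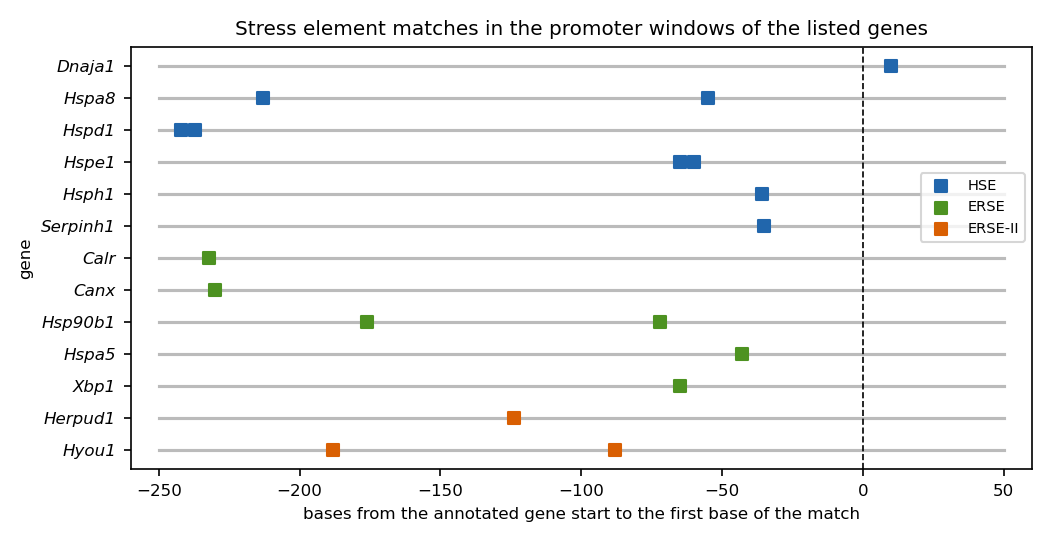
Position of each match to the heat shock element (HSE), the endoplasmic reticulum stress element (ERSE) and its second form (ERSE-II) in the promoter windows of the 13 listed genes with a match, in bases from the annotated gene start (dashed line). Heat shock element matches lie in cytosolic, mitochondrial and collagen chaperone genes, and stress element matches in endoplasmic reticulum genes, Xbp1 and Herpud1.

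No chaperone differed between diets past the threshold (limma, Benjamini-Hochberg adjusted p under 0.05 over 5244 probe sets), and 0% of all probe sets passed in any comparison. At an unadjusted p under 0.05 the share of all probe sets was 5.61% for fetal alcohol against control diet, 4.21% against isocaloric diet, and 6.81% between the diets without alcohol. Fetal alcohol against control diet asks which transcripts of the young hippocampus differ after exposure before birth. In this comparison the smallest adjusted p of a chaperone at its brightest probe set was 0.909. At these probe sets 0 of the 27 had an unadjusted p under 0.05, against 1.51% of all genes tested on the higher side and 3.25% on the lower side. Dimmer probe sets of Hspb1 (lower) and Hspa5 (higher) were under 0.05 unadjusted, and neither passed the adjusted threshold. Of the 27 differences, 18 were above 0 (66.7%) and 9 below, with a median of 0.19 on the log2 scale, beside 52.4% above 0 and a median of 0.01 over all genes tested. The median of the 27 was 0.07 without fetal alcohol array 2, and ranged from 0.07 to 0.29 over the fits that leave out 1 array. The log2 differences in the text are of log2(intensity + 10.605), which understates the change of dim genes, and each gene is represented by its brightest probe set unless stated. In bulk tissue, fewer cells of a type and less RNA per cell cannot be told apart.

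Both fetal alcohol arrays lay above both control diet arrays for 8 of the 27 genes (29.6%), against 17.6% of all genes tested. These were the cytosolic Hsph1, Dnaja1 and Stip1, the mitochondrial Hspe1, and Hspa5, Pdia3, Pdia6 and Fkbp2 of the endoplasmic reticulum. Both lay below for 4 genes (14.8%), against 16.8%, namely Hspb6, Hsp90ab1, Dnajb1 and Calr. With all arrays scaled to equal medians, or quantile normalized, 2 genes were counted below in place of 4. The share of all genes was not counted under those settings, so the change is not read as a result. With 2 arrays against 2, the smallest 2-sided exact permutation p of a single gene is 0.333, so the counts are a description.

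**Figure D2:**
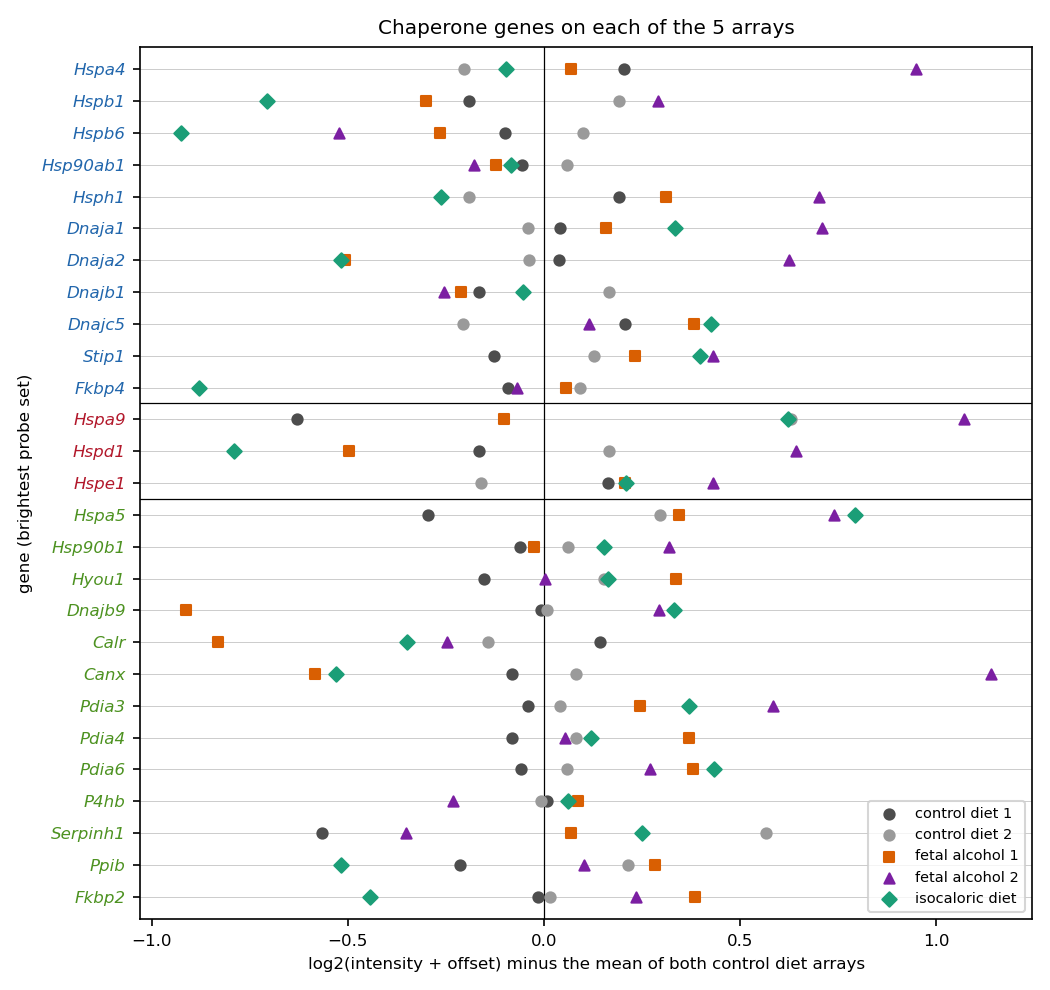
Each tested chaperone gene on each of the 5 arrays, as log2(intensity + offset) minus the mean of both control diet arrays, ordered by compartment (blue, cytosol; red, mitochondria; green, endoplasmic reticulum). Fetal alcohol array 2 (triangles) is the farthest right for 12 of the 27 genes, and the isocaloric array (diamonds) lies far left for Hspb6 and Fkbp4.

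Hspa5, known as BiP, is the Hsp70 of the endoplasmic reticulum and the standard reporter of stress there. It measured 286 and 436 under control diet, 451 and 596 after fetal alcohol and 619 under isocaloric diet. All 3 exposed or isocaloric arrays lay above both controls, with array 1 of the fetal alcohol group close to control diet array 2. The log2 difference was 0.54 ± 0.28 (SE) for fetal alcohol against control diet (limma adjusted p = 0.911) and 0.79 ± 0.34 for isocaloric against control diet (adjusted p = 0.727). The second probe set of Hspa5 measured 109.7 and 134 under control diet, 166 and 231 after fetal alcohol and 119 under isocaloric diet. There the fetal alcohol arrays again lay above the controls, by 0.65 ± 0.26 (adjusted p = 0.820), but the isocaloric array lay between the controls. The difference of Hspa5 between isocaloric and control diet was thus present at 1 of its 2 tested probe sets.

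The other large partners of Hspa5 were closer to the controls. Hsp90b1, the Hsp90 of the endoplasmic reticulum, measured 432 and 472 under control diet, 443 and 565 after fetal alcohol and 503 under isocaloric diet, a difference of 0.15 ± 0.24 for fetal alcohol against control diet. Hyou1, which exchanges nucleotide on Hspa5, measured 257 and 321, then 366 and 288, and 323. The groups overlapped for both genes. The second Hyou1 probe set ran the other way, with 105 and 100.3 under control diet, 72.1 and 73.4 after fetal alcohol and 53.7 under isocaloric diet, and the probe sets of this gene therefore disagreed in sign. Dnajb9, a J-domain cochaperone of Hspa5, measured 44.3 and 45.0, then 18.7 and 57.1, and 58.9, and its fetal alcohol arrays lay on either side of the controls.

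Calr and Canx, calreticulin and calnexin, are the soluble and the membrane-bound lectin chaperones that hold newly glycosylated proteins. Calr had the largest negative difference among the 27 genes for fetal alcohol against control diet. It measured 1728 and 1418 under control diet, 876 and 1316 after fetal alcohol and 1228 under isocaloric diet, so that both control arrays were higher than all 3 others. The difference was -0.54 ± 0.25 (limma adjusted p = 0.909), and the other probe sets gave -0.14 and -0.44. Canx measured 414 and 464 under control diet, 289 and 979 after fetal alcohol and 300.4 under isocaloric diet. The fetal alcohol arrays thus bracketed the controls, and the mean difference of 0.28 ± 0.48 describes neither of them. The promoter windows of both genes hold the endoplasmic reticulum stress element, as do those of Hspa5 and Hsp90b1. Among these 4 genes the differences for fetal alcohol against control diet ran from -0.54 to 0.54, with 3 above 0 and 1 below. Over all genes tested 52.4% were above 0.

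Among the disulphide isomerases, which form and rearrange disulphide bonds, Pdia3 and Pdia6 were higher on both fetal alcohol arrays. Pdia3, the partner of calreticulin and calnexin, measured 367 and 389 under control diet, 450.3 and 572 after fetal alcohol and 492 under isocaloric diet (0.41 ± 0.24 for fetal alcohol against control diet). Pdia6 measured 499 and 543, then 679.6 and 629, and 706 (0.32 ± 0.22). For both genes the isocaloric array too lay above both controls, with differences of 0.37 ± 0.29 and 0.43 ± 0.27 from the control diet. Pdia4 measured 83.6 and 94.9, then 118 and 92.9, and 97.7. P4hb, protein disulphide isomerase itself and a subunit of collagen prolyl hydroxylase, measured 1087 and 1076, then 1148 and 919, and 1129. The groups overlapped for Pdia4 and P4hb, whose differences were 0.21 ± 0.24 and -0.07 ± 0.22.

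Ppib and Fkbp2 are prolyl isomerases of the endoplasmic reticulum, and Serpinh1 is the chaperone of collagen. Fkbp2 measured 177 and 181 under control diet, 237 and 213 after fetal alcohol and 129 under isocaloric diet, which puts the fetal alcohol arrays highest and the isocaloric array lowest. Ppib measured 643 and 868, then 911 and 803, and 518, with the isocaloric array again lowest. Serpinh1 measured 87.1 and 203 under control diet, and all 3 other arrays (141 and 103 after fetal alcohol, 161 under isocaloric diet) lay between these. The differences for fetal alcohol against control diet were 0.31 ± 0.23 for Fkbp2, 0.19 ± 0.24 for Ppib and -0.14 ± 0.37 for Serpinh1. The second Fkbp2 probe set measured 186 and 138, then 188 and 160, and 163, a difference of 0.11, so there the groups overlapped and the isocaloric array was not lowest. The second Ppib probe set gave -0.06, so the probe sets of Ppib disagreed in sign. Over the 13 genes of the endoplasmic reticulum the median was 0.19, with 9 differences above 0 and 4 below, and it was 0.08 without control diet array 1 and 0.32 without control diet array 2.

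In the cytosol, the Hsp110 proteins Hsph1 and Hspa4, nucleotide exchange factors of Hsp70, had the largest positive differences for fetal alcohol against control diet. Hsph1 measured 240.2 and 182 under control diet, 262 and 347 after fetal alcohol and 173 under isocaloric diet (0.51 ± 0.26; limma adjusted p = 0.911). Hspa4 measured 176 and 130.0, then 159 and 302, and 141 (0.51 ± 0.33; adjusted p = 0.961). Both fetal alcohol arrays lay above the controls for Hsph1, whereas for Hspa4 only array 2 did. The second probe set of each gene gave a difference of the same sign, 0.61 and 0.33.

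The J-domain proteins deliver clients to Hsp70 and start its ATP cycle. Dnaja1 measured 326 and 308 under control diet, 355 and 524 after fetal alcohol and 402 under isocaloric diet, with all 3 of the latter above the controls (0.43 ± 0.26 for fetal alcohol against control diet). Dnaja2 measured 288 and 273, then 194 and 438, and 193, so its fetal alcohol arrays bracketed the controls. Dnajb1, a classic heat-inducible gene, measured 238 and 302, then 231 and 223, and 258 (-0.23 ± 0.24), with both fetal alcohol arrays slightly below the lower control. Dnajc5, the cysteine string protein of synaptic vesicles, measured 1132 and 847, then 1280.3 and 1061, and 1318 (0.25 ± 0.23). Its other probe sets gave -0.44 and -0.51, so the direction for Dnajc5 depends on the probe set.

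Hsp90ab1 is the constitutive Hsp90 of the cytosol, and Stip1 and Fkbp4 are cochaperones that link it to Hsp70 and to steroid receptors. Hsp90ab1 measured 3788 and 4102 under control diet, 3617 and 3485 after fetal alcohol and 3719 under isocaloric diet (-0.15 ± 0.16). The other Hsp90ab1 probe sets gave 0.08, 0.28 and -0.05, and the brightest gave 0.03 after quantile normalization, so no direction held for Hsp90ab1. Stip1 measured 136 and 164, then 177 and 205, and 200.1 (0.33 ± 0.24), with both control arrays lowest. Fkbp4 measured 191 and 218, then 213 and 194, and 106, with fetal alcohol inside the range of the controls and the isocaloric array well under the other 4.

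The small heat shock proteins hold denatured proteins without using ATP. Hspb1 measured 245 and 322 under control diet, 226 and 346 after fetal alcohol and 168 under isocaloric diet, a difference of -0.01 ± 0.28 for fetal alcohol against control diet. Its second probe set measured 169 and 255, then 107 and 102, and 152, which puts both fetal alcohol arrays below the controls (-0.93 ± 0.26; limma adjusted p = 0.582). The third gave -0.23. Hspb6 measured 94.1 and 109.7, then 82.7 and 67.5, and 48.5 (-0.39 ± 0.23), so that all 3 arrays outside the control diet were lower. Over the 11 cytosolic genes the median was 0.06, with 6 differences above 0 and 5 below. The cytosolic median was 0.29 without fetal alcohol array 1.

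Of the mitochondrial chaperones, Hspa9 is the Hsp70 of the matrix, and Hspd1 and Hspe1 are the chaperonin and its lid. Hspe1 measured 911 and 726 under control diet, 939.6 and 1099.95 after fetal alcohol and 942 under isocaloric diet (0.32 ± 0.23). Hspd1 measured 306 and 388, then 241 and 545, and 195 (0.07 ± 0.37). Hspa9 measured 80.7 and 208, then 121 and 286, and 207 (0.48 ± 0.48). The fetal alcohol arrays lay above the controls for Hspe1 only, although Hspd1 and Hspe1 share the promoter sequence printed above. All 3 differences were above 0, with a median of 0.32, which turned to -0.09 without control diet array 1 and to -0.10 without fetal alcohol array 2. The 5 tested genes with a heat shock element in their window (Hsph1, Dnaja1, Hspd1, Hspe1 and Serpinh1) ranged from -0.14 to 0.51, with 4 above 0 and 1 below. Over all genes tested 52.4% were above 0, and the matches of Hspd1 and Hspe1 are 1 stretch of sequence. Hspd1 turned to -0.50 without fetal alcohol array 2.

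**Figure D3:**
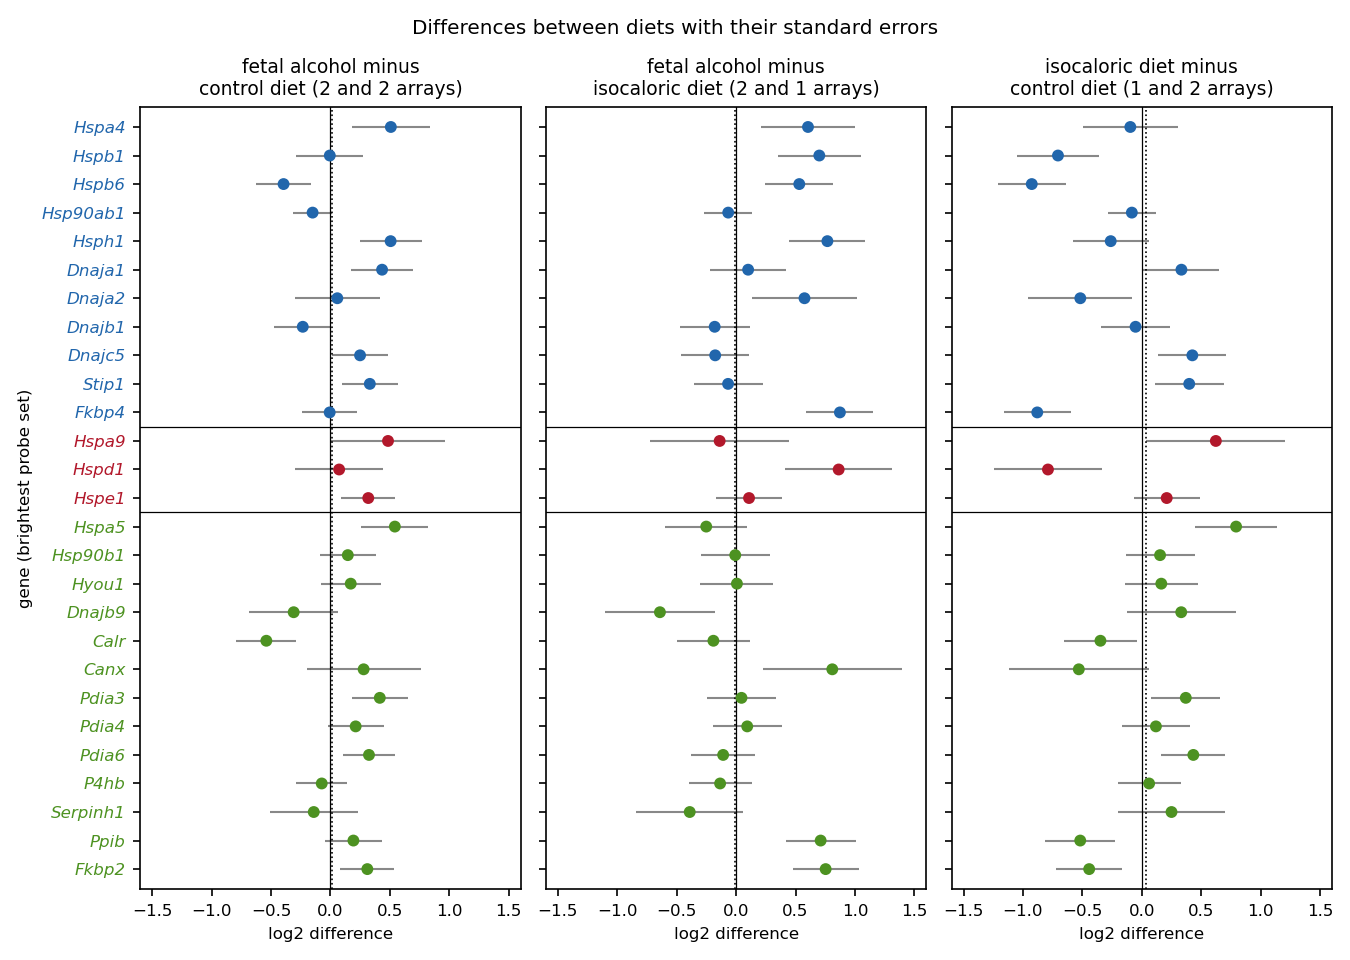
Log2 difference of each tested chaperone gene in the 3 comparisons, with bars of 1 standard error from limma. Solid lines mark 0, and dotted lines the median of all 3174 genes tested. Hsph1, Hspa4 and Hspa5 lie farthest right and Calr farthest left for fetal alcohol against control diet, while Hspb6, Fkbp4 and Hspd1 lie farthest left for the isocaloric against the control diet.

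The remaining members gave no test. Hspa1a, the stress-inducible cytosolic Hsp70, was under the intensity filter, with 22.1 and 24.2 under control diet, 13.0 and 17.3 after fetal alcohol and 20.4 under isocaloric diet. Hspa2 measured 23.7 and 20.4, then 37.0 and 24.2, and 16.8. Cryab, alpha-B crystallin, measured 31.7 and 30.6, then 41.8 and 41.7, and 18.9. Ddit3, the stress transcription factor also called Chop, measured 6.72 and 23.7, then 18.2 and 21.3, and 13.3. At these probe sets the 4 genes were dim on every array, and their values carry no call. Hspa1a had 4 further probe sets that the annotation assigns to several genes, and these were not used. For Hspa1b, Hspa8 and Hsp90aa1 the array had probe sets that the annotation assigns to several genes (4, 2 and 3), since close copies share sequence, and no value is given. Xbp1, Atf4 and Herpud1 were matched to no probe set of a single symbol and were not analysed here.

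The isocaloric diet separates feeding from alcohol, but it was measured on 1 array with no replicate check, which the fit assumed to vary like the others. Against it, 4 of the 27 chaperones were higher with fetal alcohol at an unadjusted p under 0.05 (14.8%), beside 2.36% of all genes tested, and 0 were lower, beside 1.61%. They were Fkbp4 with 0.87 ± 0.28, Hsph1 with 0.77 ± 0.32, Fkbp2 with 0.75 ± 0.28 and Ppib with 0.71 ± 0.29. The limma adjusted p of each was 0.998, the smallest among the chaperones, so none passed. The other tested probe sets of these genes gave differences of the same sign and smaller, 0.36 and 0.40 for Fkbp4, 0.42 for Hsph1, 0.09 for Fkbp2 and 0.29 for Ppib. For these 4 genes the isocaloric array was the lowest of the 5 at the brightest probe set. The count of chaperones at an unadjusted p under 0.05, in either direction, fell without either control diet array and rose without either fetal alcohol array. The share of all genes was not counted in those fits, so this count is not stable and its changes are not read as a result. Both fetal alcohol arrays lay above the isocaloric array for 9 genes (33.3%; all genes 30.4%) and below it for 7 (25.9%; all genes 29.5%).

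By compartment, the median difference for fetal alcohol against isocaloric diet was 0.53 over the 11 cytosolic genes, with 7 above 0, 0.11 over the 3 mitochondrial genes and -0.01 over the 13 of the endoplasmic reticulum. The cytosolic median was 0.01 without fetal alcohol array 2, and 0.06 when each gene was represented by the median of its probe sets. Over all genes tested the median was -0.01. The cytosolic value thus moved with 1 array and with the choice of probe set. Further positive differences were those of Hspd1 (0.86 ± 0.45), Canx (0.81 ± 0.59), Hspb1 (0.70 ± 0.35), Hspa4 (0.60 ± 0.40) and Dnaja2 (0.57 ± 0.44). A dimmer tested probe set gave the opposite sign for Hspb1 (-0.50), Dnaja2 (-0.21) and Canx (-0.18), while their remaining tested probe sets kept it. The second probe sets of Hspd1 and Hspa4 gave 1.18 and 0.52. The largest negative difference was that of Dnajb9, at -0.64 ± 0.46. No adjusted p of these was under the threshold.

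Isocaloric against control diet, which compares feeding regimes without alcohol, uses the same control arrays as the first comparison, so the 2 sets of differences are not independent. Hspa5 was higher at an unadjusted p under 0.05, 1 of 27 (3.70%) beside 1.17% of all genes tested. Hspb6 and Fkbp4 were lower, 2 of 27 (7.41%) beside 4.66%. The count of these 3 likewise fell without either control diet array and rose without either fetal alcohol array, with the share of all genes not counted there. Hspb6 differed by -0.93 ± 0.29 (limma adjusted p = 0.587) and Fkbp4 by -0.88 ± 0.28 (adjusted p = 0.599). The other probe sets of Fkbp4 gave -0.41 and -0.40 and that of Hspb6 -0.27, of the same sign and smaller. The dimmer probe set of Hyou1, with a difference of -0.82 ± 0.27, was also under 0.05 unadjusted and did not pass the adjusted threshold. The isocaloric array lay above both controls for 12 genes (44.4%; all genes 40.5%) and below both for 11 (40.7%; all genes 35%).

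The endoplasmic reticulum and cytosolic groups lay on different sides in this comparison. Of the 13 endoplasmic reticulum genes 9 were above 0, with a median of 0.15, and of the 11 cytosolic genes 8 were below 0, with a median of -0.10, beside a median of 0.03 over all genes. The difference between the compartments was not tested. Without control diet array 1 the endoplasmic reticulum median was 0.04, and without control diet array 2 the cytosolic median was -0.30. Positive differences followed Hspa5 in Hspa9 (0.62 ± 0.59), Pdia6, Dnajc5 (0.43 ± 0.29), Stip1 (0.40 ± 0.29) and Pdia3. Negative ones were those of Hspd1 (-0.79 ± 0.45), Hspb1 (-0.71 ± 0.35), Canx (-0.53 ± 0.59), Ppib (-0.52 ± 0.29), Dnaja2 (-0.52 ± 0.44) and Fkbp2 (-0.44 ± 0.28). A dimmer tested probe set gave the opposite sign for Hspa9 (-0.39), Dnajc5 (-0.32), Canx (0.27), Dnaja2 (0.09) and Fkbp2 (0.02). Any remaining tested probe sets of these genes, and those of Hspd1, Hspb1 and Ppib, kept the sign. Hspa9 and Canx had the widest standard errors of the 27 genes.

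Several chaperones differed more between the 2 fetal alcohol arrays than between fetal alcohol and control diet. On the log2 scale array 2 was at least 1.5-fold above array 1 for 7 of the 27 genes, against 13.7% of all genes tested, and array 1 was that far above array 2 for 0, against 5.55%. Canx differed by 1.72, Dnajb9 by 1.21, Hspa9 by 1.17, Hspd1 by 1.14, Dnaja2 by 1.13, Hspa4 by 0.88 and Hspb1 by 0.59. Array 2 was the highest of the 5 arrays for 12 of the 27 genes (44.4%), against 22.8% of all genes, among them 6 of the 11 cytosolic genes, all 3 mitochondrial genes and 3 of the 13 endoplasmic reticulum genes. The SD of the differences was 0.587 over the 27 genes and 0.495 over all genes tested. Over the whole set array 2 was above array 1 for 15 of 27 (55.6%) beside 51.5% of all genes, and the median of array 2 minus array 1 was -0.11 in the endoplasmic reticulum group, 0.20 in the cytosolic and 1.14 in the mitochondrial group. Within the control diet pair, array 2 was above array 1 for 19 of 27 (70.4%), beside 48.7% of all genes. Hspa9 differed there by 1.26 and Serpinh1 by 1.13, so wide splits of single genes also occurred within the control diet pair.

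**Figure D4:**
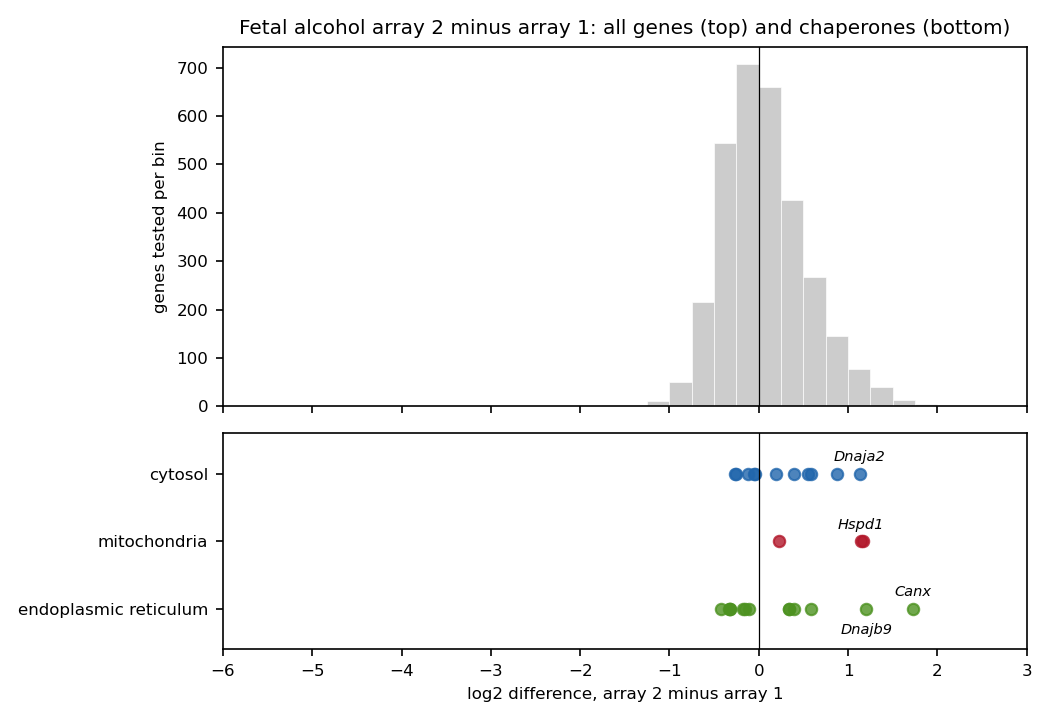
Log2 difference of fetal alcohol array 2 minus array 1, as a histogram of all 3174 genes tested in bins of 0.25 (top) and as 1 point per chaperone gene by compartment (bottom). Canx lies farthest right, at 1.72, and the lowest chaperone, Serpinh1, at -0.42.

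For 5 genes (18.5%; all genes 13.4%) array 2 lay above both controls and array 1 below both, and for 1 gene (3.70%; all genes 10.4%) the reverse held. Canx shows the pattern at each of its 5 probe sets. The second measured 249.97 and 345 under control diet, 195 and 600.03 after fetal alcohol and 226 under isocaloric diet. The third measured 201 and 255, then 120.2 and 462, and 208. In all 5 probe sets of Canx array 2 was the highest of the 5 arrays and array 1 lay below both controls. The second probe set of Hspd1 measured 142 and 190.5, then 116 and 375, and 87.1, and the 3 probe sets of Dnaja2 and of Hspa9 were each highest on array 2. Of the 21 chaperones with at least 2 tested probe sets, 10 had array 2 above array 1 at every probe set, 5 had the opposite and 6 were mixed. Probe sets of a gene measure the same RNA sample, so they are no replicates of the exposure.

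**Figure D5:**
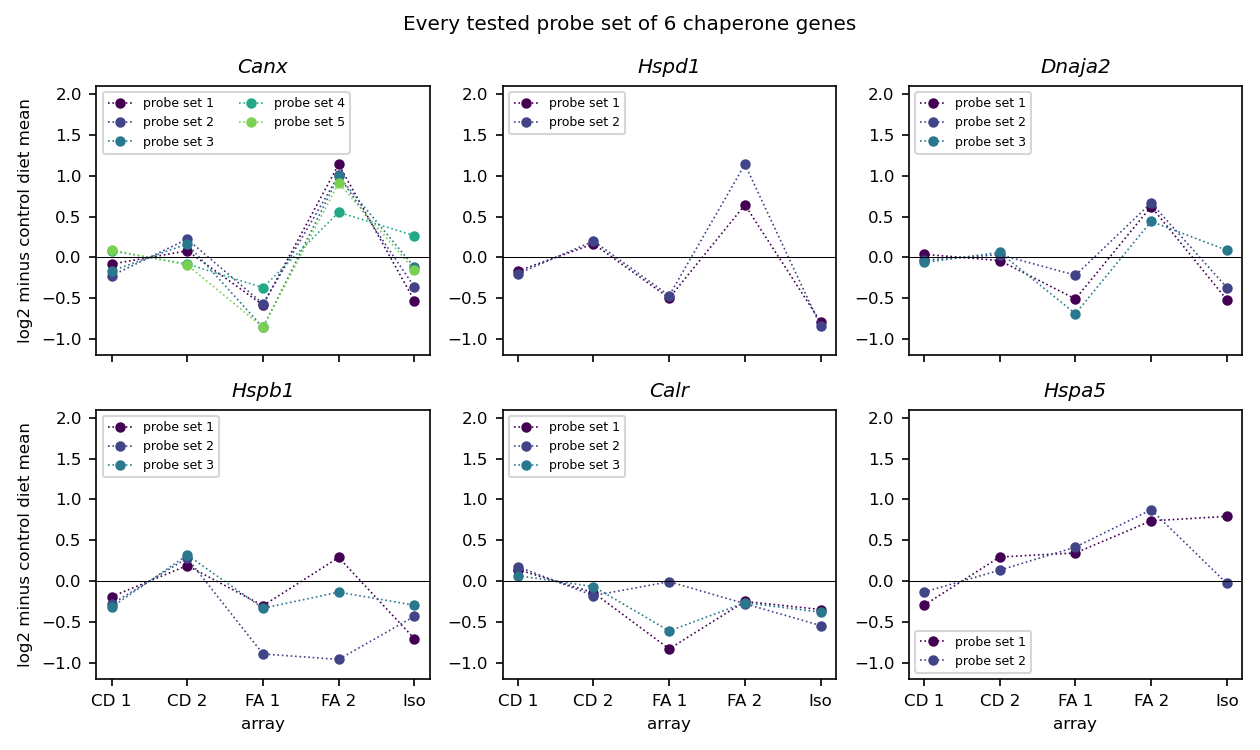
Every tested probe set of 6 chaperone genes on the control diet (CD), fetal alcohol (FA) and isocaloric (Iso) arrays, as log2(intensity + offset) minus the mean of both control diet arrays. Dotted lines join the values of 1 probe set and do not mark an order of arrays. Canx, Hspd1 and Dnaja2 peak on fetal alcohol array 2 at each probe set, whereas the probe sets of Hspb1 separate on the fetal alcohol arrays and those of Hspa5 on the isocaloric array.

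The spread between these arrays set what the test could call. Over all probe sets tested, log2 values differed between arrays with an SD of 0.509 within the fetal alcohol pair, the widest of all 10 pairings, and of 0.341 within the control diet pair, the narrowest. In the fits without fetal alcohol array 1 or array 2, the remaining fetal alcohol array was assumed to vary like the control diet arrays. The residual spread then came from the control diet pair alone, so counts of chaperones from those fits are not compared.

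Markers of neighbouring tissue also differed between the arrays. Summed over the 8 tested choroid plexus markers, intensity was 7942 and 8010.0 under control diet, 2926 and 1160 after fetal alcohol and 8121 under isocaloric diet, with 7 of 8 below 0 for fetal alcohol against control diet. Ttr held most of this sum, with 6228 and 5728, then 1276 and 19.3, and 5745. Without Ttr the other 7 summed to 1714 and 2282, then 1649.9 and 1141, and 2376. In that sum, held mostly by Igfbp2 and Igf2, fetal alcohol array 1 lay close to control diet array 1 and array 2 lowest. By single marker, both fetal alcohol arrays lay below both controls for 6 of the 8 (75%), against 16.8% of all genes tested. Igfbp2 and Prlr overlapped the controls. Aqp1, for example, measured 79.5 and 86.5, then 25.3 and 35.1, and 107. Over 13 markers of meninges and fibroblasts the summed intensity was 2804 and 3844, then 2950.3 and 1780, and 2585.0, with 12 of 13 below 0. Over 7 neuronal markers it was 4877 and 4431, then 4398 and 5332, and 4357, highest on fetal alcohol array 2. Over 10 markers of hippocampal pyramidal and granule neurons it was 4414 and 4361, then 5224 and 4285, and 3924, highest on fetal alcohol array 1, so the neuronal lists did not follow the same order of arrays. None of these markers was listed at 0, and Kcnj13 and Nid1 were under the offset on every array. Beta-actin gave 3'/5' signal ratios of 1.32 and 1.34 under control diet, 1.18 and 1.26 after fetal alcohol and 1.12 under isocaloric diet. The same ratio for Gapdh was 0.878 and 0.895, then 0.984 and 0.877, and 0.931, and did not order the arrays as beta-actin did. The part of tissue composition and of RNA quality in the chaperone differences was not tested.

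Other genes of the same pathways were taken from wider lists. Of 9 tested genes of mitochondrial import and folding, all 9 were above 0 for fetal alcohol against control diet, with a median of 0.12, and 8 were above 0 for isocaloric against control diet, with a median of 0.30. Of 20 tested genes of endoplasmic reticulum folding, translocation and quality control, 14 and 15 were above 0 in these comparisons, with medians of 0.13 and 0.23. Over all genes tested 52.4% and 53.7% were above 0, with medians of 0.01 and 0.03. Both comparisons use the same control arrays, so their counts are not independent. Against the isocaloric diet 13 of the 20 were below 0 with fetal alcohol, with a median of -0.16, beside 51.4% and -0.01 over all genes tested. Of 10 other cytosolic folding genes 5 were above 0 and 5 below for fetal alcohol against control diet, and the median was 0.00. None of the genes on these lists passed the adjusted threshold.

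Of 15 tested genes of the unfolded protein and integrated stress responses, 5 were above 0 and 10 below for fetal alcohol against control diet, with a median of -0.03. Bcl2, which blocks cell death at mitochondria and the endoplasmic reticulum, measured 64.2 and 48.0 under control diet, 19.1 and 35.9 after fetal alcohol and 21.6 under isocaloric diet. All 3 arrays outside the control diet lay below the controls, with differences of -0.83 ± 0.30 (limma adjusted p = 0.776) and -1.04 ± 0.36 (adjusted p = 0.631). Hmox1, the stress-inducible heme oxygenase, measured 117 and 145, then 148 and 93.1, and 268, and the isocaloric array stood above all others. The difference was 0.98 ± 0.34 for isocaloric against control diet (limma adjusted p = 0.631). For fetal alcohol against isocaloric diet it was -1.12 ± 0.34 (limma adjusted p = 0.998). From the wider endoplasmic reticulum list and not among these 15, Ssr4, a subunit of the translocon-associated complex, measured 610.1 and 744, then 419.6 and 512, and 765. Both fetal alcohol arrays were lowest for Ssr4 (-0.71 ± 0.29 against the isocaloric diet, limma adjusted p = 0.998). Each of these 3 genes was at an unadjusted p under 0.05 in the comparisons whose adjusted p is given.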

How the data were processed

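The deposited values are intensities on a linear scale, 1 per probe set and array, as the authors deposited them for 5 samples of total RNA. The scanner software is not given in the sources used here, nor is any scaling. Their 2% trimmed means lay between 150.19 and 150.22, so the columns were used as deposited. Control probe sets (59) were left out. The other 8740 became log2(intensity + 10.605), the offset being the 20th percentile of all values, and 5244 with a mean log2 value at or above the 40th percentile were tested.

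Gene names came from the platform annotation, updated through gene identifiers; 7006 probe sets had 1 symbol, 308 several and 1426 none. The 3 comparisons were fitted over all 5 arrays with limma 3.58.1 (R 4.3.3), lmFit and eBayes with an intensity trend, 2-sided, Benjamini-Hochberg adjusted over all probe sets tested, with a threshold of 0.05. Degrees of freedom were 2 residual and 6.30 prior, and the procedure was tested on simulated data. The number of arrays limits the precision. Scan dates and detection calls were not used.

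Each gene was represented by its brightest probe set, and no probe set's level was set against another's. The members and lists were chosen with earlier results of these data known. Every member is named whatever its values; of the wider lists, up to 3 genes higher and 3 lower at an unadjusted p under 0.05 were named. Alternatives were the offset, the filter, the normalization, the variance trend, the replicate block, each array left out, the fit without the isocaloric array, and the median over probe sets. Promoter windows are RefSeq's (GRCr8), matched by symbol.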

Additional observations from a re-analysis of the deposited data

How the results depend on the processing

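No member passed the adjusted threshold under any setting run. The count over all probe sets, 0 in each comparison (limma; 294, 221 and 357 at an unadjusted p under 0.05), became 1 with the offset at the 40th percentile, 1 with quantile normalization and 9 with equal medians for fetal alcohol against control diet. Against the isocaloric diet it became 3 with quantile normalization and 3 with equal medians. Over the fits that leave out 1 array it ran from 0 to 25 for fetal alcohol against control diet, from 0 to 12 against the isocaloric diet and from 0 to 13 between the diets without alcohol. With the replicate block it was 8 for fetal alcohol against control diet, with 0 members. The labels give the numbers no meaning, and deviations of same-numbered arrays correlated at -0.113, so they were not used as pairs.

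Members without overlap numbered 2 below with quantile normalization and 2 with equal medians, where the share of all genes was not counted. Leaving out 1 array of either group sets 2 arrays against 1, where groups separate more easily than with 2 against 2. The share of all genes was not counted in those fits, so the counts that follow are not read as a result. Members without overlap numbered 10 to 16 above and 4 to 9 below when 1 array was left out. Medians for fetal alcohol against control diet then ran from 0.070 to 0.29 (all members), 0.056 to 0.29 (cytosol) and 0.084 to 0.32 (endoplasmic reticulum). Against the isocaloric diet they ran from -0.040 to 0.21 (all members) and 0.0093 to 0.53 (cytosol), the latter 0.34 with the filter at the 60th percentile and 0.062 with the median over probe sets. For isocaloric against control diet they ran from -0.30 to -0.097 (cytosol) and 0.037 to 0.22 (endoplasmic reticulum).

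Single members changed sign as follows; the causes were not tested. For fetal alcohol against control diet, quantile normalization gave 0.032 for Hsp90ab1, equal medians 0.036 for Hspb1 and 0.036 for Fkbp4, and the median over probe sets 0.014 for Hsp90ab1, -0.44 for Dnajc5 and -0.14 for Hyou1. Leaving out 1 array, ranges crossed 0 for Hspb1 (-0.30 to 0.29), Dnaja2 (-0.51 to 0.62), Fkbp4 (-0.098 to 0.084), Hspa9 (-0.15 to 1.12), Hspd1 (-0.50 to 0.64), Hsp90b1 (-0.026 to 0.32), Dnajb9 (-0.91 to 0.29), Canx (-0.58 to 1.14), P4hb (-0.23 to 0.086), Serpinh1 (-0.71 to 0.42) and Ppib (-0.021 to 0.41). Against the isocaloric diet, quantile normalization gave 0.024 for Hsp90b1, equal medians -0.010 for Hyou1, and the median over probe sets -0.15 for Dnaja1, 0.092 for Hspa9, 0.21 for Hspa5 and 0.31 for Hsp90b1. Ranges crossed 0 for Dnaja1 (-0.17 to 0.38), Stip1 (-0.17 to 0.031), Hspa9 (-0.72 to 0.45), Hspe1 (-0.0040 to 0.22), Hsp90b1 (-0.18 to 0.16), Hyou1 (-0.16 to 0.17), Calr (-0.48 to 0.10), Canx (-0.053 to 1.67), Pdia3 (-0.12 to 0.21), Pdia4 (-0.065 to 0.25) and P4hb (-0.29 to 0.024). For isocaloric against control diet, quantile normalization gave 0.081 for Hsp90ab1, equal medians 0.0072 for Dnajb1, and the median over probe sets 0.033 for Hsp90ab1 and -0.33 for Hyou1. Ranges crossed 0 for Hspa4 (-0.30 to 0.11), Dnajb1 (-0.22 to 0.11), Hspa9 (-0.0079 to 1.25) and Serpinh1 (-0.32 to 0.81). The remaining 973 values of single members under an alternative kept their direction and their side of the threshold.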
